A study of Mus musculus with 1203 samples.

Results

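Tuft cells of the mouse colon were divided here by Ptprc, the gene for the receptor-type tyrosine phosphatase CD45. A well counted as a tuft cell when it had at least 1500 genes above 0 TPM, at least 50 TPM of Trpm5 and at least 100 TPM of Dclk1. TPM is a length-normalised share of a cell's transcripts scaled to a total of 1000000. The rule was applied to the 1165 wells that were read. Of all 1203 wells of the series, with the 38 not read kept in the total, 35.9% were found to be tuft cells. Of these, 51.2% had at least 5 TPM of Ptprc and are called Ptprc-expressing, 24.3% had 0 TPM, and 24.5% lay above 0 and under 5 TPM. Plate sets 1 to 7, named by the first number in the plates' names, held 32, 21, 33, 25, 27, 79 and 4 Ptprc-expressing cells, 9, 8, 22, 25, 14, 26 and 1 cells at 0, and 7, 18, 11, 10, 6, 52 and 2 cells between. The cells were selected on Ptprc, Trpm5, Dclk1 and the number of detected genes, so values of these below are descriptions.

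The wells came from female mice aged 11 weeks that either carried VillinCre with floxed IPMK alleles (labelled conditional knockout) or were wild type. Villin-Cre acts in intestinal epithelial cells. Single live cells stained for EPCAM and SIGLEC-F were sorted into plates and read by a modified Smart-seq2 protocol, which copies polyadenylated RNA into full-length cDNA. The labels call 18 of the tuft cells epithelial and all others tuft. Plate sets 2, 4, 5 and 7 are labelled conditional knockout and plate sets 1, 3 and 6 wild type, so no plate set holds both. No label names an animal, so each genotype is 1 sample and no p-value is given. Differences were taken within plate sets, and each SD is the spread between plate sets, which may be technical.

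Tuft cells are rare chemosensory cells of the gut lining that use taste-type signalling and release leukotrienes, acetylcholine and the cytokine IL-25. In the mouse small intestine they have been described as an immune-type class, which carries Ptprc and genes such as Rac2, Tslp and Siglecf, and a neuronal-type class with genes such as Nrep, Nradd and Gng13. CD45 is otherwise known as the surface phosphatase of nearly all blood cells, where it acts on Src family kinases. The comparison asks whether genes of these programmes separate in colon tuft cells that do and do not show Ptprc.

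Ptprc (ENSMUSG00000026395) lies on the minus strand of mouse chromosome 1 from 138062861 to 138175708 in GRCm38. Its mean was 29.2, 19.8, 16.98, 24.96, 19.04 and 18.4 TPM in the Ptprc-expressing cells of plate sets 1 to 6, against 0 by choice in the others. Single expressing cells ran from 5.09 to 201.6 TPM with a median of 12.6 TPM. The nearest cells inside the limit held 5.09, 5.12 and 5.21 TPM, and the nearest outside it 4.92, 4.86 and 4.75 TPM. The limit therefore cuts a continuous range and marks no gap between kinds of cell. For Trpm5 the nearest values were 52.5 TPM inside and 44.6 TPM outside, for Dclk1 101.5 and 95.6 TPM, and for detected genes 1509 and 1495.

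Ptprc was common in colonic tuft cells and rare in other wells. It reached 5 TPM in 51.2% of tuft cells (exact binomial interval 46.3% to 55.96%, counting error only) and was above 0 in 75.7% (71.4% to 79.7%). Of the wells with at least 1500 genes and neither Trpm5 nor Dclk1, 6.01% had any Ptprc (11 wells, interval 3.04% to 10.5%), although these wells had more detected genes, with medians of 3570 genes against 2792 in tuft cells. Any Ptprc was seen in 14.9% of the wells that failed the Trpm5 or the Dclk1 limit. Plate sets 1 to 6 gave Ptprc-expressing shares of 66.7%, 44.7%, 50.0%, 41.7%, 57.4% and 50.3%. The mean share was 47.9% ± 8.38 in plate sets labelled conditional knockout and 55.7% ± 9.53 in wild type plate sets (SD, n = 3 plate sets each), so the genotypes overlapped. Plate set 7, with 4 expressing cells and 1 cell at 0, entered no further comparison.

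Detection of Ptprc and its level both went with the number of genes detected. Whether cells with 0 TPM of Ptprc lacked the transcript was not tested. The Ptprc-expressing share was 26.3% of cells with 1500 to 2000 genes and 64.1% of cells with 4000 or more (17.04% to 37.3% and 52.4% to 74.7%). Any Ptprc was seen in 50.0% and 88.5% of the same cells. The median number of genes was 2965, 3590, 3333, 2824, 3061 and 3171 in the Ptprc-expressing cells of plate sets 1 to 6, against 2680, 2549, 2792, 2437, 2164 and 1852 in cells at 0. The expressing cells had the higher median in 6 of 6 plate sets, by 745 ± 405.6 genes (SD). TPM keeps no read depth, so larger cells, more RNA and deeper libraries cannot be told apart here. The share of TPM taken by the 18S ribosomal RNA entry was lower in expressing cells in each of the 6 plate sets, 76.3% against 79.8% on average.

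**Figure D1:**
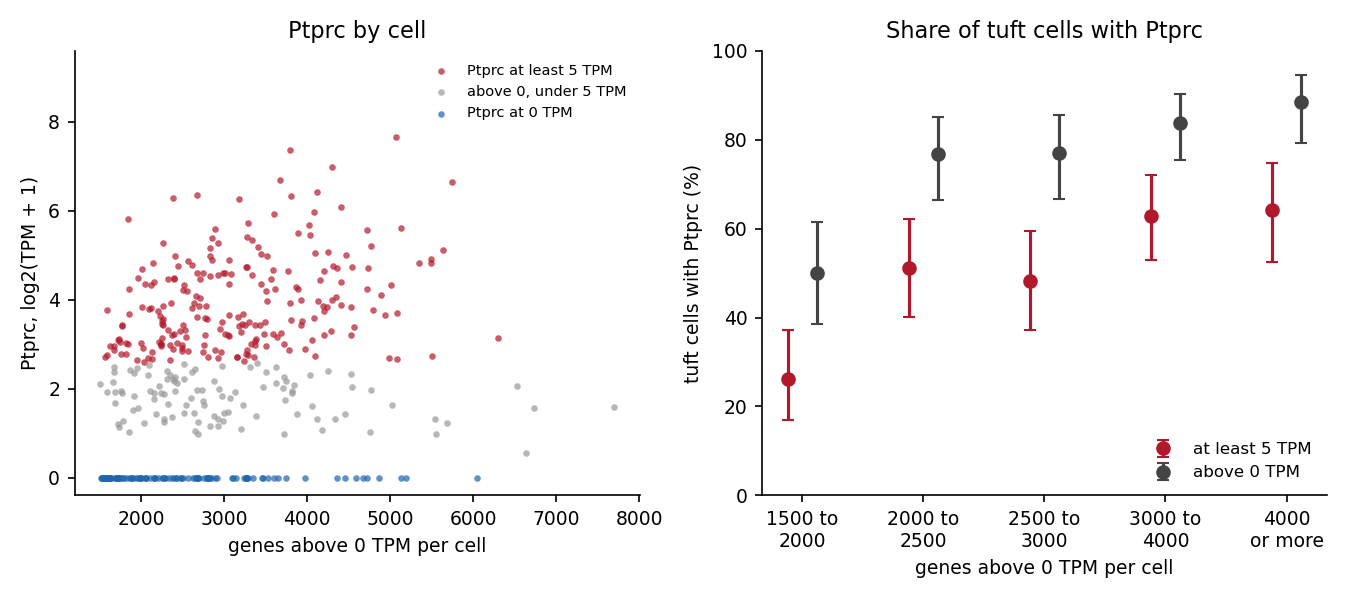
Left, Ptprc as log2(TPM + 1) in each tuft cell against the number of genes above 0 TPM, coloured by the division on Ptprc; right, the share of tuft cells with at least 5 TPM and with any Ptprc in 5 ranges of detected genes, with exact 95% binomial intervals. The share with at least 5 TPM was 26.3% in the lowest range and 64.1% in the highest, and cells at 0 lie mostly at the left.

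Markers of blood cells that carry CD45 were at or near 0 in both groups. Cd3d, Cd3e, Cd3g, Trac and Trbc2 of T cells, Cd79a of B cells, Lyz2 of myeloid cells, and Epx, Prg2 and Ccr3 of eosinophils were at 0 in every expressing cell and in every cell at 0 of Ptprc. Other defining markers were above 0 in a few cells: Csf1r of macrophages in 15 expressing cells (6.79%) and 1 cell at 0 (0.95%), at no more than 4.19 TPM, and Ms4a1 of B cells in 2 expressing cells and no cell at 0. Adgre1 and Cd74 of antigen-presenting myeloid cells were above 0 in 1 and 2 cells at 0 and in no expressing cell. Of the 15 T cell markers, 14 were at 0 in all expressing cells and 12 in all cells at 0, and the summed level over plate sets was at most 0.27 and 0.41 TPM. The 9 B cell markers summed to between 0 and 3.21 TPM in expressing cells and 0 and 3.37 TPM in cells at 0, and the 14 myeloid markers to 0.39 to 2.02 TPM and 0.68 to 2.69 TPM. At least 5 TPM of a myeloid marker was seen in 14 expressing cells (6.33%) and 9 cells at 0 (8.57%), and of a B cell marker in 9 (4.07%) and 3 (2.86%). Eosinophil and mast cell markers, 12 in all, reached 0.23 TPM in expressing cells and were at 0 in the cells without Ptprc. Epcam, the epithelial surface gene, was detected in 97.7% of expressing cells and 92.4% of cells at 0. Leaving out every tuft cell with at least 5 TPM of any of these markers left 9.95% of genes higher by the rule given below, beside 9.78% with all cells. Of the 28 named genes that were called, 22 were still called without those cells, and the immune-type and neuronal-type medians given below were 0.77 and 0.10, beside 0.96 and 0.34. Ptprc-expressing wells held epithelial and tuft transcripts, with the defining transcripts of these blood cells at or near 0.

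Most transcripts were somewhat higher in Ptprc-expressing cells, which sets the background for each gene below. TPM was averaged over the cells of each group within a plate set, and the difference of log2(mean TPM + 1) was averaged over plate sets 1 to 6, so changes of low genes are understated. A gene is called higher or lower when it reached 10 TPM in a group, differed at least 2-fold and had the same sign in all 6 plate sets. Of 2588 genes at 10 TPM, 9.78% were higher and 1 gene was lower (0.0386%). The median gene differed by 0.62, with 0.24 to 0.98 over plate sets, and 88.2% of genes were above 0. Centring each plate set on its median gene, an alternative chosen after seeing the data, left 34 genes higher (1.31%) and 33 lower (1.28%). With the 18S and mitochondrial entries left out and the rest rescaled, the median of the same genes was 0.43. Higher genes were 99.6% of the calls before centring and 50.7% after it.

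The tilt was smaller against cells at 0 with a nearer number of detected genes. Each expressing cell was set against the 3 cells at 0 of its plate set nearest to it in that number, which left a mean gap of 243.4 genes, beside 601.6 without it. In that comparison 5.7% of 2702 genes were higher and 4 genes lower (0.148%), with a median of 0.44 over all genes tested. Called higher in both comparisons were 120 genes. Against the cells of these plate sets above 0 and under 5 TPM, also chosen after seeing the data, the gap was 189.8 genes and the median gene stood at 0.71. There 8.89% of 2543 genes were higher and 2 genes lower (0.0786%), and 61 of the higher genes were also higher against cells at 0. Called higher in all 3 comparisons were 31 genes, counting Ptprc itself.

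The immune-type tuft list held 4 calls, and its genes lay on both sides of the median gene. Of its 13 members other than Ptprc, 11 reached 10 TPM and 4 of these were called higher, beside 9.78% of all genes tested. All 11 differences were above 0, as were 88.2% over all genes. The median of the 11 was 0.96 beside 0.62 for all genes tested, 0.74 beside 0.44 against cells nearest in detected genes, and 0.41 beside 0 after centring. Against cells above 0 and under 5 TPM of Ptprc the list's median was 0.73 beside 0.71, so there it stood at the median gene. In plate sets 1 to 6 the list's median was 0.27, 0.99, 0.65, 0.83, 0.86 and 1.48, lowest in plate set 1 and highest in plate set 6.

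Cd24a, a glycosylated surface protein used to sort intestinal cells, was the immune-type gene at the highest level. It averaged 925, 922, 787, 1182, 1084 and 656 TPM in the Ptprc-expressing cells of plate sets 1 to 6, against 572.7, 152.9, 375.4, 298.5, 558.7 and 134.2 TPM in cells at 0. Every expressing mean lay above every mean at 0, and the log2 difference was 1.59 ± 0.79 (SD, n = 6 plate sets). Cd24a was also called after centring, where the difference was 1.04, and stood at 1.15 against cells nearest in detected genes. In that comparison it was not called, since the sign was not the same in every plate set.

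Siglecf, the sialic acid receptor whose protein was used to sort the cells, averaged 102.04, 61.5, 109.1, 86.6, 166.1 and 66.5 TPM in expressing cells, against 89.2, 19.8, 68.8, 36.1, 51.8 and 12.4 TPM in cells at 0. The difference was 1.28 ± 0.76, smallest in plate set 1 at 0.19 and largest in plate set 6 at 2.33. The 2 groups overlapped across plate sets, although expressing cells were higher within each. Detection differed less, at 94.5% and 87.6% of cells on average over plate sets.

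Alox5ap, which presents arachidonic acid to 5-lipoxygenase, averaged 212.1, 14.03, 87.1, 131.9, 101.5 and 80.5 TPM in expressing cells, against 163.5, 10.5, 36.8, 17.2, 27.3 and 12.5 TPM in cells at 0. It was higher by 1.55 ± 1.07, with plate sets 1 and 2 at 0.37 and 0.39 and plate set 4 at 2.87. Ffar3, a receptor for short-chain fatty acids, averaged 50.4, 51.5, 42.3, 59.6, 67.4 and 32.4 TPM against 22.4, 23.7, 31.6, 37.7, 23.1 and 10.97 TPM. It was higher by 1.04 ± 0.44 and was the one immune-type gene also called against cells nearest in detected genes, at 1.13. Neither was called after centring.

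The other immune-type genes were not called. Irf7, an interferon regulatory factor, differed by 0.96 ± 0.67 and was above 0 in 6 of 6 plate sets, but fell short of 2-fold. Il25, the tuft cytokine of type 2 immunity, was low, at 10.01 ± 4.70 TPM in expressing cells and 5.07 ± 3.36 TPM in cells at 0, with a difference of 0.96 ± 0.80. Rac2, a GTPase of blood cells, differed by 0.60 ± 0.48, Il17rb, a subunit of the IL-25 receptor, by 0.59 ± 0.68, and the prostaglandin synthase Ptgs1 by 0.49 ± 0.40, all below the median gene. Cd300lf, a lipid receptor, stood at 0.72 ± 0.39 and the adaptor Fyb at 0.35 ± 0.32. Sucnr1, the succinate receptor, was under 10 TPM and detected in 14.5% of expressing cells and 3.95% of cells at 0 on average over plate sets. Tslp, an epithelial cytokine, was seen in 1 expressing cell and in no cell at 0 of Ptprc, so no difference was detectable at this depth.

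Neuronal-type genes were mostly low in both groups. None of those tested was called in either direction against cells at 0, beside 9.78% higher and 0.0386% lower of all genes tested. Of the 12 list members, 4 reached 10 TPM, with a median difference of 0.34, or 0.26 against cells nearest in detected genes, −0.21 after centring and −0.20 among cells with at least 2500 genes. A count of calls or a median over 4 genes carries little weight beside the 9.78% and the 0.62 of all genes tested. Uchl1, Tubb3 and Snap25, neuronal cytoplasmic, tubulin and synaptic genes, were at 0 in both groups. Nradd, a death-domain receptor homologue, averaged 5.43 TPM in expressing cells and 2.69 TPM in cells at 0, and Nrep, a neuronal regeneration protein, 0.82 and 2.69 TPM.

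Nav2, a neuron navigator protein and the most evenly expressed of the 4, averaged 63.3, 50.3, 64.2, 65.9, 60.2 and 58.04 TPM in the expressing cells of plate sets 1 to 6, against 93.7, 40.2, 51.8, 45.4, 56.98 and 51.2 TPM in cells at 0. The groups overlapped and the difference was 0.14 ± 0.37. Nrgn, a calmodulin-binding protein of neurons, averaged 18.95, 16.02, 17.9, 18.5, 33.8 and 27.6 TPM against 41.9, 10.5, 22.6, 18.6, 6.64 and 6.79 TPM. It differed by 0.53 ± 1.28 and was above 0 in 3 of 6 plate sets. Against cells above 0 and under 5 TPM of Ptprc it was called higher, at 1.38. Rgs2, which limits G protein signalling, differed by 0.71 ± 1.66, with −1.72 in plate set 1 and 2.80 in plate set 5.

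Gng13, a G protein gamma subunit of taste signalling, had the one negative mean difference among the 4 tested genes. Its means were 2.19, 57.97, 2.90, 1.13, 3.71 and 15.1 TPM in the expressing cells of plate sets 1 to 6, against 11.7, 60.3, 23.1, 0, 80.5 and 8.46 TPM in cells at 0. The difference of −1.15 ± 2.08 was smaller than its spread, and the sign was negative in 4 of 6 plate sets. Gng13 was detected in 8.60% of expressing cells (5.26% to 13.1%) and 7.62% of cells at 0 (3.35% to 14.5%), so a few cells set these means. On averages of single-cell log2(TPM + 1) the difference was −0.07.

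**Figure D2:**
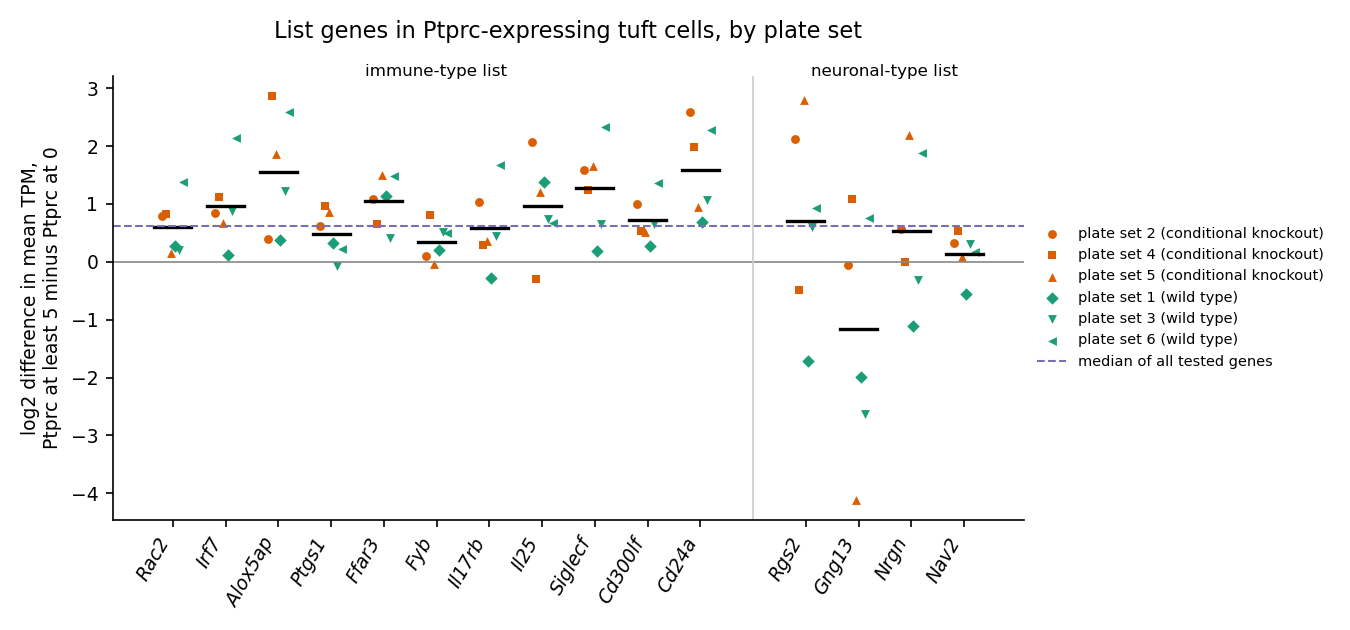
Log2 difference in mean TPM between Ptprc-expressing tuft cells and tuft cells at 0 TPM of Ptprc for each tested immune-type and neuronal-type gene; points are plate sets, coloured by genotype, black bars their mean, and the dashed line the median of all 2588 tested genes. The 11 immune-type means all lie above 0 and spread around the dashed line, while the 4 neuronal-type genes run from −1.15 to 0.71 with points on both sides of 0.

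Scored per cell, the 2 programmes did not separate into opposite groups among these sorted colonic tuft cells. Siglecf is in the immune-type list and its protein was used in the sort, so tuft cells low in it may have been missed. Each score was the mean of log2(TPM + 1) over all list members, and 3 of the 12 neuronal-type members were at 0 in every cell of both groups. Only 4 of the 12 reached 10 TPM, so the neuronal-type score had little room to show an opposite group. The immune-type score was higher in expressing cells in 6 of 6 plate sets, by 0.79, 0.84, 0.62, 0.79, 0.81 and 1.35. Its means were 4.26 and 3.39. On the same scale the median of all genes tested was itself 0.52 higher in expressing cells. Against cells nearest in detected genes the immune-type score difference was 0.59 ± 0.14, and against cells above 0 and under 5 TPM it was 0.73 ± 0.35. Both were above 0 in all 6 plate sets. The neuronal-type score differed by 0.12 ± 0.30 and was above 0 in 5 of 6 plate sets, with means of 1.18 and 1.05, and by −0.02 among cells with at least 2500 genes. Plate set 1, at −0.45, was the exception, and it held 9 cells at 0.

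Across single cells the 2 scores went together rather than apart. Spearman's rho between them was 0.21, 0.29, 0.37, 0.38, 0.36 and 0.50 over the tuft cells of plate sets 1 to 6, at least 47 in each, given as a description because cells of a plate set share its libraries and both scores track detected genes. With detected genes taken out by partial rank correlation, rho ran from 0.07 to 0.35. Ptprc itself had a rho of 0.24 to 0.50 with the immune-type score and −0.06 to 0.43 with the neuronal-type score. Taking out detected genes gave 0.13 to 0.33 and −0.21 to 0.22.

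Cells were also placed above or below their plate set's median on each score. Both scores were high in 41.5% of the Ptprc-expressing cells (34.8% to 48.3%) and 11.5% of the cells at 0 (6.11% to 19.3%). Neither was high in 22.6% (17.2% to 28.7%) of expressing cells and 42.3% (32.7% to 52.4%) of cells at 0. Only the immune-type score was high in 22.1% and 20.2%, and only the neuronal-type score in 13.8% (9.53% to 19.1%) and 25.96% (17.9% to 35.5%). The median number of detected genes was 3791 among expressing cells with both scores high and 2262 among those with neither, against 2988 and 1763 among cells at 0. These classes are ranges of a score cut at its median and no cell types.

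**Figure D3:**
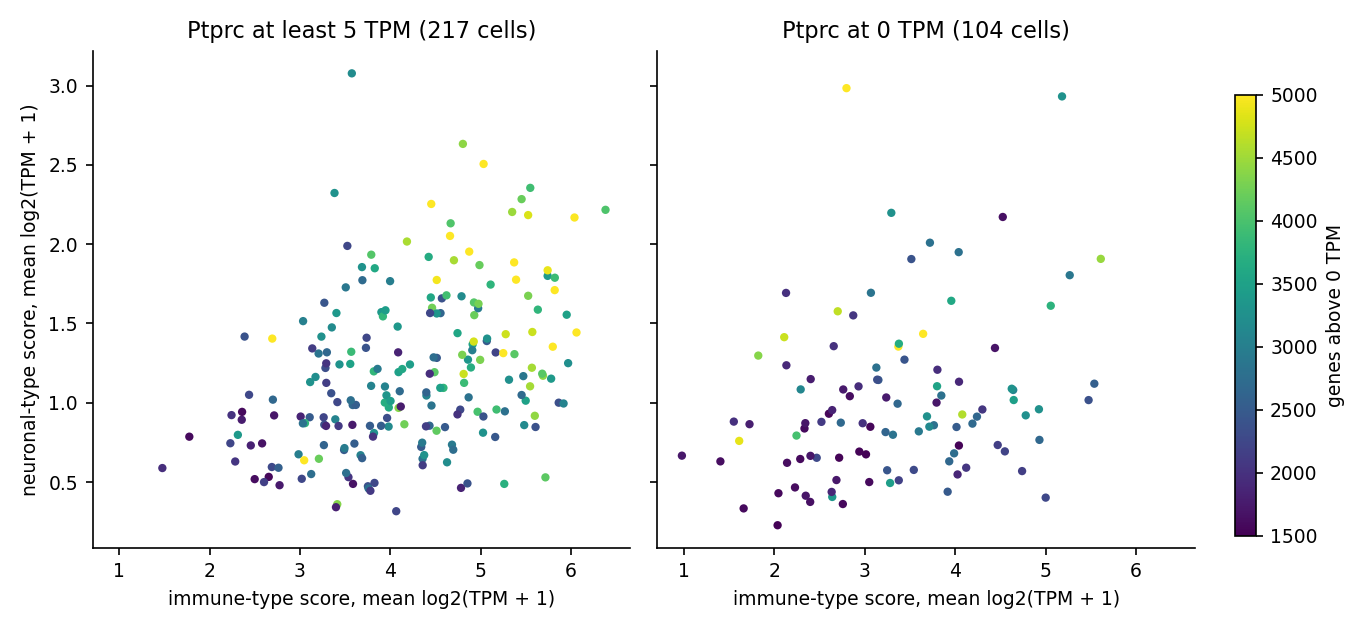
Neuronal-type score against immune-type score, both as mean log2(TPM + 1) over list members, for Ptprc-expressing tuft cells (left) and tuft cells at 0 TPM of Ptprc (right) of plate sets 1 to 6, coloured by genes above 0 TPM. Both panels show 1 cloud that runs upwards to the right, with cells of many detected genes at its upper end.

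Calls were also made among general tuft cell genes. Of 24 core tuft genes, 22 were tested and 6 were called higher, beside 9.78% of all genes tested. All 22 differences were above 0, as were 88.2% over all genes, with a median of 0.77 (0.56 against cells nearest in detected genes, 0.22 after centring). Calls numbered 3 of 22 against cells nearest in detected genes, beside 5.7% of all genes, and 2 of 22 after centring, beside 1.31%. Trpm5 and Dclk1, on which all cells were chosen, averaged 299.1 and 658.7 TPM in expressing cells and 221.7 and 506.0 TPM in cells at 0. Several core genes are blood cell signalling genes, and Cd24a, Il25, Gnat3 and others stand in more than 1 list.

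Rgs13, a regulator of G protein signalling, gave the clearest separation among core tuft genes. It averaged 67.7, 70.5, 98.5, 88.95, 98.5 and 93.7 TPM in the Ptprc-expressing cells of plate sets 1 to 6, against 27.1, 15.1, 41.6, 20.5, 30.1 and 20.1 TPM in cells at 0. Every expressing mean exceeded every mean at 0. The difference was 1.76 ± 0.43 and was called as well against cells nearest in detected genes, at 1.27, and after centring, at 1.21. Against cells above 0 and under 5 TPM of Ptprc it was 1.32, with the same sign in 5 of 6 plate sets.

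Gnat3, the taste G protein alpha subunit gustducin, averaged 30.6, 26.6, 16.3, 18.4, 40.7 and 19.97 TPM in expressing cells, against 19.2, 7.73, 7.90, 8.50, 5.95 and 3.17 TPM in cells at 0. It was higher by 1.54 ± 0.79 and again by 1.56 against cells nearest in detected genes. Kctd12, a potassium channel tetramerisation domain protein, was higher by 1.40 ± 0.62, Sh2d6, an SH2-domain adaptor, by 1.33 ± 0.77, and Adh1, an alcohol dehydrogenase, by 1.2999 ± 0.46. Against cells nearest in detected genes Sh2d6 was called at 1.51, and Kctd12 at 0.83 and Adh1 at 0.999 were not. None of Gnat3, Kctd12, Sh2d6 and Adh1 was called after centring. Among the other taste genes Plcb2, the phospholipase downstream of taste receptors, differed by 0.27 ± 0.29 and the inhibitory G protein subunit Gnai2 by 0.65 ± 0.53, and neither was called. Chat, which makes acetylcholine, was at 18.7 ± 2.28 TPM in expressing cells and 17.3 ± 6.22 TPM in cells at 0 and differed by 0.16 ± 0.36.

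Genes of leukotriene synthesis included a call that held against cells nearest in detected genes. Of 10 eicosanoid genes 5 were tested and 2 were called higher, Alox5ap and Alox5, beside 9.78% of all genes tested. The list's median was 0.89 beside 0.62 for all genes tested, and no member was called after centring. Alox5, the 5-lipoxygenase that starts leukotriene synthesis, averaged 127.1, 83.9, 117.1, 119.4, 123.7 and 78.2 TPM in expressing cells, against 51.3, 23.8, 50.3, 70.5, 49.1 and 25.05 TPM in cells at 0. No plate-set mean of the expressing cells overlapped with those at 0, and the difference was 1.32 ± 0.35, or 1.16 against cells nearest in detected genes. Against cells above 0 and under 5 TPM of Ptprc it was 0.34 and not called. Ltc4s, which makes leukotriene C4, differed by 0.89 ± 0.45 and was not called.

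Partners of CD45 known from lymphocytes and myeloid cells were few at 10 TPM. Of 16 Src family kinases, adaptors and related genes 5 were tested and 1 was called, beside 9.78% of all genes tested. The list's median was 0.91 beside 0.62 for all genes tested. Skap2, a Src kinase-associated adaptor, averaged 94.1, 49.9, 71.4, 86.7, 125.3 and 66.2 TPM in the expressing cells of plate sets 1 to 6, against 48.6, 16.7, 26.1, 36.6, 45.3 and 18.3 TPM in cells at 0. Its difference of 1.39 ± 0.29 had the smallest spread of the called list genes and was called in each of the 3 comparisons, though not after centring, where it was 0.84. Lyn, a Src family kinase, differed by 1.02 ± 0.97 and was below 0 in plate set 1. Csk, which restrains these kinases at the site that CD45 releases, differed by 0.51 ± 0.28.

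Other blood cell signalling genes followed the median gene. Of 27 such genes 13 were tested and 1, Sh2d6, was called, beside 9.78% of all genes tested. Differences were above 0 for 12 of the 13, and the median was 0.65 beside 0.62 for all genes tested. Ptpn6, the phosphatase SHP-1, was at 739 ± 227.5 TPM in expressing cells and 504.005 ± 195.8 TPM in cells at 0, a difference of 0.60 ± 0.54. Of 18 other receptor-type tyrosine phosphatases only Ptprf and Ptprd reached 10 TPM, and they differed by 0.16 ± 0.37 and 0.15 ± 0.75. Neither was called.

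Antigen presentation, interferon and type 2 genes held 1 call each, out of 8, 9 and 5 tested, where 9.78% of all genes were called. H2-D1, an MHC class I heavy chain, was higher by 1.01 ± 0.50 (236.4 ± 68.9 TPM against 123.5 ± 56.2 TPM), among 8 tested of 12 with a median of 0.99. Ifi27l2b, an interferon-induced gene, was higher by 1.20 ± 0.98, among 9 tested of 21 with a median of 0.75. Ifi27l2b was also called against cells nearest in detected genes, at 1.04. Il10rb, a receptor subunit shared by IL-10 family cytokines, was higher by 1.44 ± 0.37 (16.4 ± 4.22 TPM against 5.66 ± 2.69 TPM), among 5 tested of 9 with a median of 0.72. Against cells nearest in detected genes H2-D1 at 0.73 and Il10rb at 1.18, the second above 0 in 5 of 6 plate sets, were not called. None of these 3 was called after centring.

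Ribosomal protein genes stood below the median gene. All 20 were tested, with a median of 0.14 that turned to −0.20 against cells nearest in detected genes and −0.41 after centring, where 19 of 20 were below 0. It was −0.08 with the 18S and mitochondrial entries left out. Rpl18 was the exception, at 726 ± 396.7 TPM in expressing cells and 228.1 ± 90.4 TPM in cells at 0, and higher by 1.56 ± 0.83, but reads of ribosomal genes are shared with pseudogene copies and its level is uncertain. Early response and heat shock genes, 8 tested of 19, had a median of −0.06 and no call, beside 9.78% of all genes tested. The heat shock genes Hsp90aa1, at 0.81 ± 0.62, and Hspa8, at 0.74 ± 0.57, were above 0 in 6 of 6 plate sets. The other 6 tested members had mean differences below 0. On averages of single-cell log2(TPM + 1) the median was 0.14, and Hsp90aa1 and Hspa8 were called higher, at 1.24 and 1.09. Fos, an immediate early gene, differed by −0.54 ± 2.07.

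**Figure D4:**
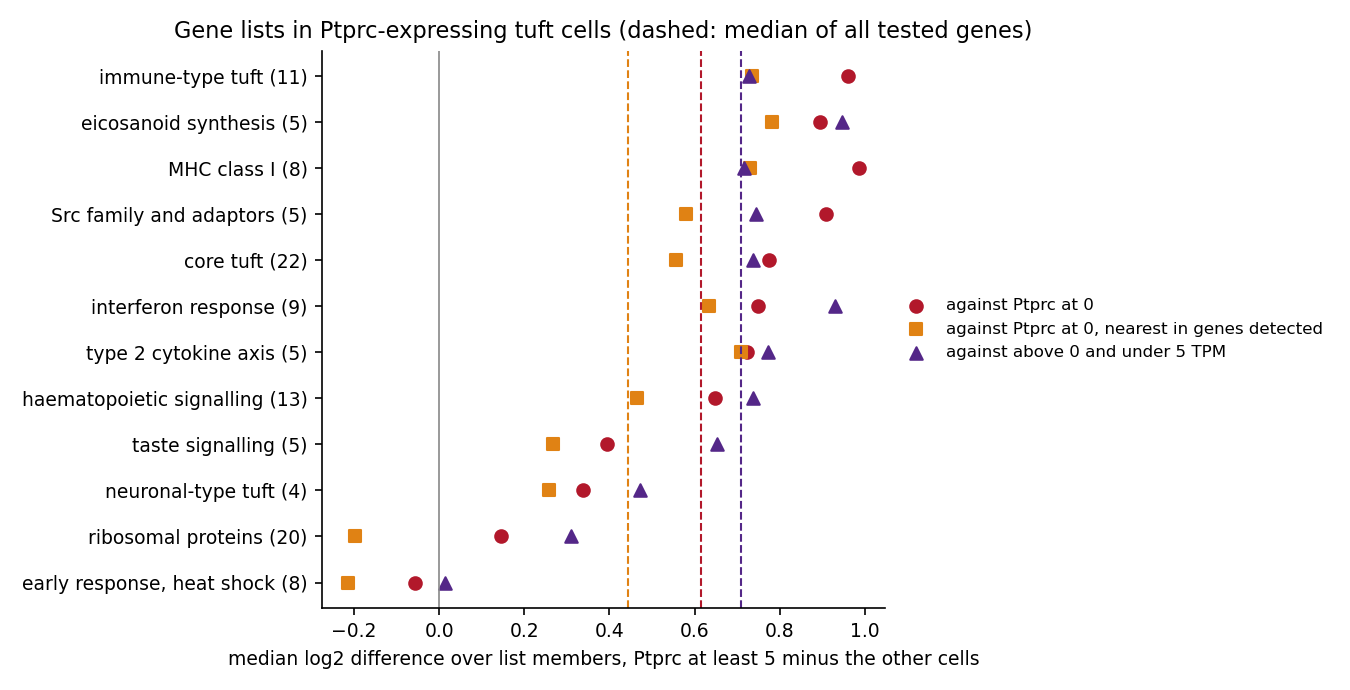
Median log2 difference over the tested members of 12 gene lists (number tested against cells at 0 in brackets) for Ptprc-expressing tuft cells against cells at 0 (circles), against cells at 0 nearest in genes detected (squares) and against cells above 0 and under 5 TPM (triangles); dashed lines give the median of all tested genes in the same comparison. Immune-type genes stand at 0.96 against a line at 0.62. The medians of the neuronal-type, the ribosomal and the early response and heat shock lists lie to the left of each line.

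Few markers of other colonic epithelial cells were tested, and none was called, beside 9.78% of all genes tested. Those tested were 5 colonocyte, 3 stem or progenitor, 2 cycling and 1 enteroendocrine marker. Of 17 colonocyte markers 5 were tested with a median of 0.47, and their summed level over plate sets ran from 113.8 to 1609 TPM in expressing cells and 27.9 to 1077 TPM in cells at 0. Of these, Lypd8, a secreted colonocyte protein, differed by 1.79 ± 2.15 and Car1, a carbonic anhydrase, by −1.16 ± 4.39, each with both signs among plate sets. No goblet marker reached 10 TPM on average, and the summed level was 8.88 to 12.3 TPM in expressing cells and 3.77 to 27.6 TPM in cells at 0. Sct, the enteroendocrine hormone secretin, was at 52.1 ± 31.96 TPM in expressing cells and 25.1 ± 16.6 TPM in cells at 0. It differed by 1.09 and was not called because plate set 1 was below 0, at −0.57. The stem cell gene Lgr5 differed by 0.35 ± 0.92, and the part that any of these transcripts played in the differences above was not tested.

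By size, the 12 highest genes were Tm4sf1 (3.59 ± 1.35), Sycn (2.98 ± 2.20), Alg14 (2.73 ± 0.83), Rdm1 (2.71 ± 1.59), Sin3a (2.59 ± 1.28), Bak1 (2.54 ± 0.35), Wapal (2.40 ± 1.58), Mmgt2 (2.31 ± 0.92), Aim2 (2.30 ± 1.84), Capg (2.28 ± 0.86), Glyctk (2.28 ± 1.28) and Hist1h2ap (2.28 ± 1.65), apart from Ptprc itself. Most were detected in a minority of cells. Tm4sf1, a tetraspanin-like surface protein, was seen in 24.8% of expressing cells and 6.58% of cells at 0 on average over plate sets, with means of 38.5 ± 22.7 TPM and 3.68 ± 5.27 TPM. Aim2, a cytosolic DNA sensor of the inflammasome, was at 45.4 and 42.8 TPM in the expressing cells of plate sets 3 and 5 and at 1.23 to 5.997 TPM in the other 4. On averages of single-cell log2(TPM + 1) the 12 differences ran from 0.31 for Sycn and Hist1h2ap to 1.80 for Capg.

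Among the 12, Glyctk was detected in 42.9% of expressing cells and 30.2% of cells at 0 on average over plate sets. Capg, an actin-capping protein abundant in macrophages, was also carried by many cells. It averaged 39.6, 19.8, 25.6, 49.6, 33.7 and 17.6 TPM in Ptprc-expressing cells, against 4.33, 0.93, 5.28, 21.5, 11.01 and 2.16 TPM in cells at 0. Expressing cells were higher within every plate set, with overlap only at the mean of plate set 4 at 0, and detection was 52.5% against 21.6%. Its difference of 2.28 ± 0.86 was 1.95 against cells nearest in detected genes, 1.32 against cells above 0 and under 5 TPM and 1.73 after centring. Bak1, a pro-apoptotic membrane protein, was more even between plate sets but low, at 14.2 ± 4.89 TPM and 1.70 ± 1.07 TPM.

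S100a16, a calcium-binding protein, was the only gene called lower. It averaged 6.71, 0.57, 5.22, 10.7, 3.25 and 1.20 TPM in the expressing cells of plate sets 1 to 6, against 45.3, 11.5, 7.92, 18.5, 6.06 and 4.52 TPM in cells at 0. The difference was −1.48 ± 1.06, and the gene was detected in 8.72% and 13.1% of cells, so these means rest on few cells. It was not called against cells nearest in detected genes, where it stood at −1.36.

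The difference between Ptprc-expressing cells and cells at 0 was also taken in each genotype, although no plate set holds both. The median gene stood at 0.59 in plate sets labelled conditional knockout and 0.61 in wild type plate sets, and the immune-type median at 0.88 and 0.89. The neuronal-type median was 0.61 in plate sets labelled conditional knockout and −0.04 in wild type plate sets, where 3 of the 4 genes were below 0. The MHC class I median was 1.24 over 8 tested genes in plate sets labelled conditional knockout and 0.69 over 6 in wild type plate sets. Rgs13 was at 1.97 and 1.56, Skap2 at 1.40 and 1.39, Alox5 at 1.28 and 1.37 and Capg at 2.04 and 2.52. Sh2d6 was at 0.78 in plate sets labelled conditional knockout and 1.89 in wild type plate sets, and no difference between genotypes was tested. Ipmk, the targeted gene, averaged 7.42 ± 6.10 TPM in tuft cells labelled conditional knockout and 1.93 ± 0.59 TPM in wild type tuft cells (SD, n = 3 plate sets each) and was detected in 19.3% and 21.8% of them. Ipmk therefore did not go with the labels, and directions by genotype are those of the labels. A gene-level TPM does not read the deleted part alone.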

How the data were processed

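The deposited table gives TPM per well (1203 wells) over 46517 mouse genes plus 92 spike-ins, made by the authors with Bowtie2 2.4.2 and RSEM 1.3.3 on build mm10, per the submitters' processing notes. The annotation release, strand handling and read depth were not given in the sources used here. Because TPM holds no depth, the number of genes above 0 stood in for it, and RSEM shares reads among near-identical copies by a model. The 18S entry took most of the fixed total, which lowers every other gene's TPM. The 38 columns of 1 plate of plate set 7 were not used, and 1165 columns were read. Gene positions are those of GENCODE for GRCm38 and were matched by gene ID.

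Tuft cells numbered 432, with 221 Ptprc-expressing, 105 at 0 and 106 between; plate sets 1 to 6, which were compared, held 217 expressing cells, 104 at 0 and 104 between. Calls higher numbered 253 against cells at 0, 154 against those nearest in detected genes and 226 against cells between. The wells with at least 1500 genes and neither Trpm5 nor Dclk1 numbered 183. Genotypes came from the labels. Within plate sets with at least 5 cells in each group, mean TPM plus a pseudocount of 1 was compared on the log2 scale and plate sets were weighted equally. A call needed 10 TPM in a group, 2-fold and the same sign in every plate set. Cells are not replicates, so no test was run, and binomial intervals (95%, exact) cover counting error only. Named are Ptprc, Trpm5 and Dclk1, all immune-type and neuronal-type genes at 10 TPM, the 12 largest calls each way apart from clone-named genes, pseudogenes and mitochondrial genes, and from other lists the called members and at most 4 more by level. 1 item is not reported here. The members and the 23 gene lists were chosen with earlier results of these data known. No doublet caller was run, since each well received a sorted cell. The contrast was tested on simulated data with known changes. Alternatives were other pseudocounts and floors, the mean over cells of log2 values, cells nearest in detected genes, stricter limits on genes and Ptprc, wells labelled tuft only, rescaling without the 18S and mitochondrial entries, cells free of leukocyte markers, pooling, and each plate set left out; 2 further ones were chosen after seeing the data. Python 3.11.15, numpy 2.4.6, pandas 2.3.3 and scipy 1.17.1 were used.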

Additional observations from a re-analysis of the deposited data

Results flagged for a closer look

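Among 90 sets of 6 plate-set values, 5 held a plate set far from the others by Dixon's criterion, and chance gives about 1 in 20. The immune-type score difference was 1.35 in plate set 6, beside 0.62 to 0.84 in the other 5, and the neuronal-type score difference was −0.45 in plate set 1, beside 0.09 to 0.36. Plate set 6 also had the widest gap in detected genes between Ptprc-expressing cells and cells at 0, with medians of 3171 and 1852 genes. Plate set 1 had 32 expressing cells and 9 cells at 0 and the narrowest gap, with medians 284.5 genes apart. Whether these gaps had a part in the scores was not tested. Against cells nearest in detected genes the immune-type difference was 0.69 in plate set 6 and 0.36 to 0.72 in the other 5, and the neuronal-type difference of plate set 1 was −0.51.

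Single genes gave the other values. Matk, a kinase that acts on Src family kinases, differed by 1.44 in plate set 6 and by 0.27 to 0.60 in the other plate sets. Itpr2, a calcium release channel, differed by 1.62 in plate set 4, beside −0.01 to 0.30 elsewhere. Sox9, a progenitor transcription factor, differed by 0.81 in plate set 4, beside −0.04 to 0.27 elsewhere.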

How the results depend on the processing

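Of the 28 named genes that were called, none turned in direction under any of the 21 alternatives. Still called were 19 against cells nearest in detected genes, 16 with the mean over cells of log2 values, 17 with a pseudocount of 10 TPM, 12 after centring, 9 against cells above 0 and under 5 TPM of Ptprc, and 18 to 28 under the rest. The share of tested genes called higher, 9.78%, was 2.28% with a pseudocount of 10 TPM, 5.45% with a floor of 1 TPM, 2.85% with none, 5.70% against cells nearest in detected genes, 4.80% after rescaling, 15.0% with cells pooled and 1.31% after centring. Leaving out 1 plate set gave 9.40% to 15.4%, the highest without plate set 1. The share called lower, 0.0386%, was 0% with a pseudocount of 10 TPM, with the mean of log2 values and without cells holding leukocyte markers, 0.020% and 0.011% with a floor of 1 TPM and none, 0.148% against cells nearest in detected genes, 0.767% with at least 2500 genes, 0.245% with Ptprc at least 20 TPM, 0.216% after rescaling, 3.26% pooled, 0.079% against cells above 0 and under 5 TPM, 1.28% after centring, 0.112%, 0.115%, 0.117%, 0.077% and 0.219% without plate set 2, 3, 4, 5 and 6 in turn and 0.040% without plate set 1. The immune-type median was 0.41 after centring and 0.73 to 0.98 with 1 plate set left out, and its score difference was 0.59 against cells nearest in detected genes. The neuronal-type median, 0.34, was −0.20 with at least 2500 genes, −0.21 after centring and 0.18 to 0.57 with 1 plate set left out, and its score difference, 0.12, was −0.02 with at least 2500 genes. The mean gap in detected genes, 601.6, was 243.4 against the nearest cells, 143.4 with at least 2500 genes, 966 with Ptprc at least 20 TPM, 189.8 against cells above 0 and under 5 TPM and 530.9 to 693.9 with 1 plate set left out. The share of tuft cells with Ptprc was 58.6% with at least 2500 genes, 75.7% with any Ptprc and 16.9% with at least 20 TPM. The cause of these shifts was not tested. The groups were compared within plate sets throughout, and the values with cells pooled are those without that pairing. Between the genotypes, no paired analysis was possible because each plate set holds only one of them and no label ties their wells to each other.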
